A study of Rattus norvegicus with 8 samples.

Results

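Transcript levels of 8 rat genes of the interferon response and of antigen presentation were compared between induced and uninduced cells of the line Htt14A2.5. The genes were Irf7, Irf1, Psmb8, Psmb9, Tap1, Tap2, B2m and RT1-DMb. They were chosen by name, 8 of the 4736 genes with a probe set of their own. Every probe set to which the array's annotation gives one of these symbols and no other was taken, 14 of the 8799 on the array. A further B2m probe set that carries several symbols was left out. All 14 passed a filter on low signal (a mean over the 8 arrays of at least 36.33), so all were tested, and the 8 gene identifiers were found in the rat reference list under the same symbols.

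Interferons bind receptors that signal through JAK kinases and STAT factors, and the STAT factors and interferon regulatory factors (IRFs) then switch on genes that carry short DNA elements for them. Among the targets are the genes of the class I presentation route, in which the proteasome cuts proteins into peptides, the TAP transporter carries the peptides into the endoplasmic reticulum, and peptides leave for the cell surface on class I molecules paired with beta-2-microglobulin. Class II molecules, found mainly on leukocytes, are loaded in the endocytic route with help from the DM protein, and neuronal cells are known for low levels of both classes.

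PC12 cells descend from a pheochromocytoma, a tumour of chromaffin cells of the rat. All 8 samples were of the same line, which per the labels carries a truncated mutant form of exon 1 of human huntingtin under inducible control, so the uninduced controls carry the transgene too. The 4 induced samples are those titled +PA, for ponasterone, an ecdysteroid that was given for 48 h, and the 4 uninduced samples are those titled -PA. The free-text description of the -PA samples also mentions induction, so the titles set the groups, and no samples that received ponasterone without the transgene were analysed here. Effects of the agent and of the huntingtin fragment therefore cannot be told apart. Whether replicates came from different cultures is not stated in the labels, so p-values measure the spread between these samples, which may be technical.

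Each sample was hybridised to 1 array, and every probe set gives a signal that the authors had scaled. Median signals lay between 97.5 and 134.9 over the 8 arrays, with both groups spread over that range. As a reference for low signal, the 95th percentile of 38 negative control probe sets lay between 102 and 183, and signals under it on the same array are called under background here. Of 8 defining chromaffin markers on the array, Chgb, Scg2, Phox2a and Snap25 were above background on all 8 arrays. The catecholamine enzymes were not: Th lay between 32.5 and 164 and above background on 1 array, and Dbh (2.40 to 16.8) and Ddc (20.9 to 43.3) were under background on all 8. Of 8 defining leukocyte markers, Cd4 was above background on all arrays (124 to 290), and Cd8a, Itgam, Aif1, Csf1r and Cd74 were under it on all arrays. Coro1a (79.1 to 419) was above background on 7 arrays and Ptprc (17.5 to 157) on 2. In the wider leukocyte list 0 of 14 tested genes passed the test, and its summed signal ranged from 1691 to 3492 in induced and from 2061 to 2800 in uninduced samples. Summed signals of the chromaffin list (70671 to 75192 induced, 53636 to 62937 uninduced) and of the fibroblast list (9607 to 11246 induced, 7304 to 9500 uninduced) did not overlap between groups. Sums of the interferon, class I and class II lists examined below did not overlap either, with induced samples above. The class II sums, for example, were 14930 to 15101 induced and 11445 to 13172 uninduced. Those of the core proteasome list overlapped. Bright genes weigh most in such sums, among them Vgf (mean 9349 induced, 1398 uninduced) and S100a4 (2693 and 1074). The chromaffin list had 6 genes called higher and 3 called lower out of 23 tested, with a list median of 0.14. Called higher were Vgf (log2 difference 2.74), Ret (2.05, 1.09 and 0.96), Pam (0.95 on rc_AA891068_f_at), Gap43 (0.61), Scg3 (0.57) and Ptprn (0.55). Phox2a (-0.70), Syp (-0.47) and Gata3 (-0.68) were called lower. Of 9 tested fibroblast genes, 2 were called higher and 0 lower, with a list median of 0.0015. List medians, here and below, take 1 tested probe set per gene, the one with the highest mean signal. The fibroblast genes called higher were S100a4 (1.32) and Col1a1. Col1a1 was called on rc_AI231472_s_at (0.71) and M27207mRNA_s_at (1.05) and not on its other probe sets (0.70 and 0.13). Of 5 defining fibroblast markers, Col1a1 and Col3a1 had a probe set above background on all 8 arrays. Col1a2 and Pdgfra were under it on all 8, and Dcn was above it on 1. The part of these markers in the results below was not tested, and in such bulk RNA fewer cells of a type and less RNA per cell cannot be told apart.

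Induced cells had lower Psmb9, an inducible catalytic subunit of the proteasome, on both of its probe sets, at -32.1% and -34.5%. They had higher Irf7, a transcription factor of the interferon response, on 1 of 2 probe sets. RT1-DMb, a chain of the class II loading protein DM, was lower on 1 of 3 probe sets, at signals under background. That probe set passed the low-signal filter of 36.33 only through the uninduced samples (mean 88.4, against 29.4 in induced samples). It is counted in the shares given next. Of the 14 probe sets 1 was called higher, against 4.10% of all tested probe sets, and 3 lower, against 2.97%. Called means a Benjamini-Hochberg adjusted p under 0.05 over all 6118 tested probe sets with limma, a linear model that shares information on spread between probe sets, run on log2 of the signal plus 7. The calls make up 28.6% of the 14, against 7.08% of all tested probe sets. However, the 4 calls came from 3 genes, and both Psmb9 probe sets share a source sequence. The RT1-DMb call rests on signals under background, and the genes were chosen with earlier results known. Nothing is therefore drawn from the gap between these shares. The 4 called probe sets were also the member probe sets whose groups did not overlap. Non-overlap held for 13.6% of all tested probe sets (6.47% with the induced samples above and 7.13% with them below). Members moved in both directions, 7 up and 7 down, with a median log2 difference of -0.06 against -0.05 over all tested probe sets.

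**Figure D1:**
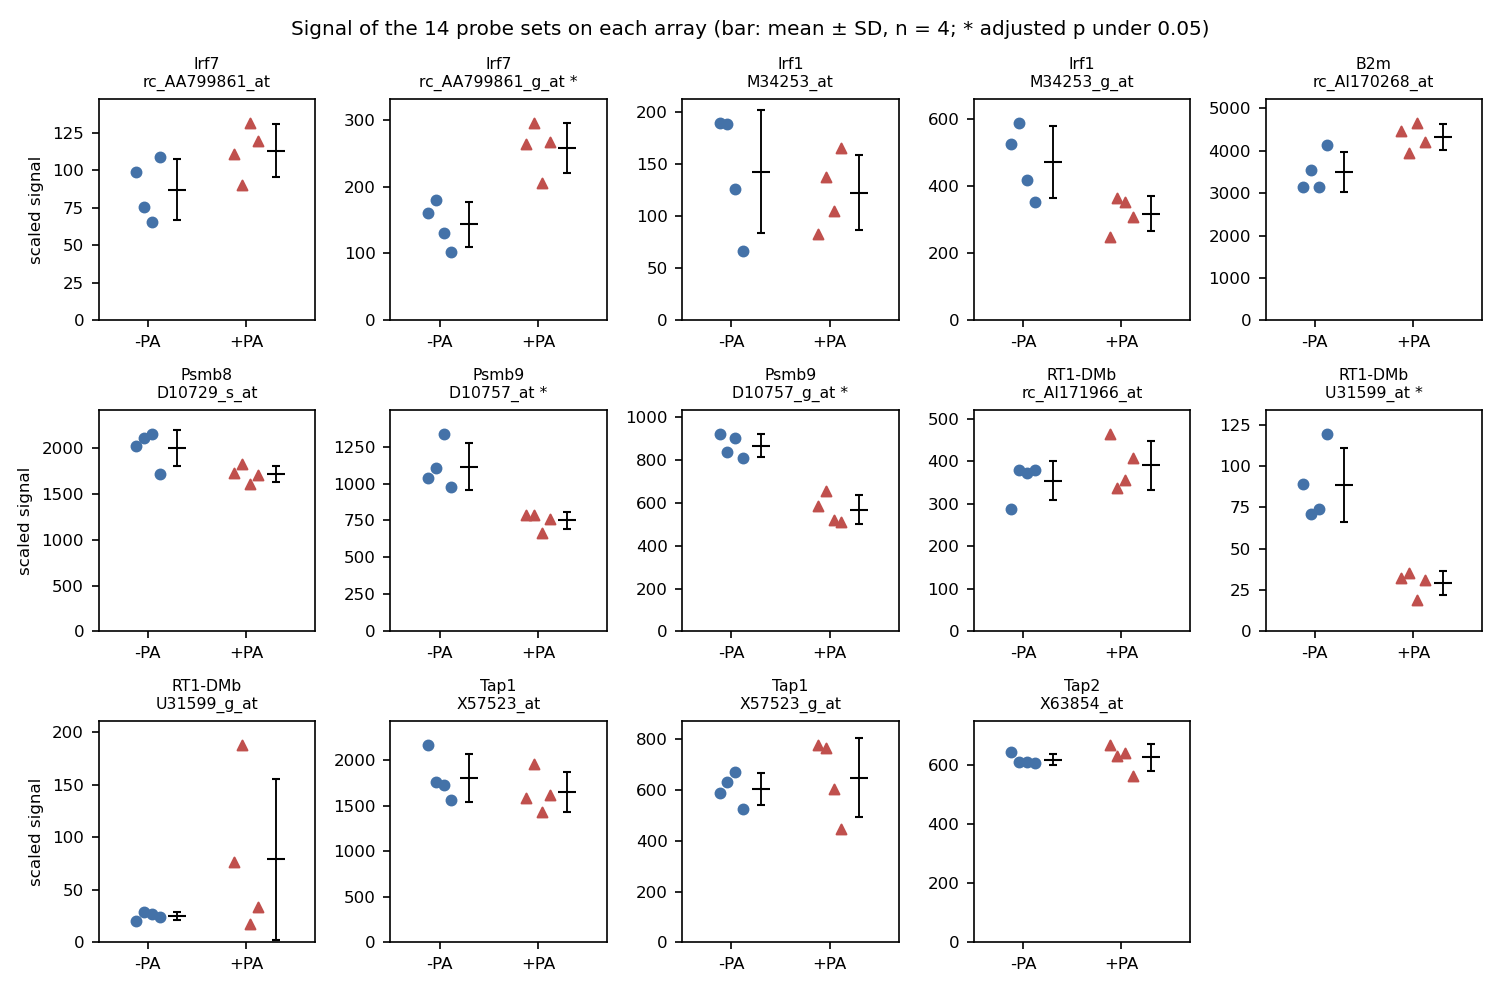
Scaled signal of each of the 14 probe sets (vertical axis, linear from 0) on the 4 uninduced (-PA, blue circles) and 4 induced (+PA, red triangles) arrays, with the mean and SD of each group as a black bar and an asterisk for an adjusted p under 0.05. The groups separate in both Psmb9 panels, in 1 Irf7 panel and in 1 RT1-DMb panel, where every signal lies between 18.8 and 120.

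Irf7 is the regulatory factor that amplifies type I interferon production. On probe set rc_AA799861_g_at its signals were 263, 296, 205 and 267 in induced samples and 160, 181, 131 and 103 in uninduced samples. Every induced sample was above every uninduced sample. The log2 difference was 0.83 ± 0.21 (SE; 95% interval 0.37 to 1.29; limma adjusted p = 0.0344), a 1.78-fold rise from 144 ± 34.0 to 258 ± 37.9 (SD, n = 4 each). Of the uninduced signals, 3 were under background, and all 4 induced signals were above it. On rc_AA799861_at, drawn from the same source sequence, signals were 111, 90.1, 132 and 120 in induced samples and 99.0, 75.5, 65.7 and 109 in uninduced samples. These groups overlapped and 7 of the 8 signals were under background (log2 difference 0.36 ± 0.26, adjusted p = 0.520). The difference between both Irf7 probe sets was itself not beyond the spread (0.47 on the log2 scale, two-sided exact permutation p = 0.257).

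The Irf7 difference stayed between 0.69 and 0.95 in all 18 alternatives, but it passed the test in only 7 of them. The call ended without any of induced replicates 1, 2 and 4 or uninduced replicates 1, 3 and 4, with adjusted p from 0.0524 (without uninduced replicate 1) to 0.109 (without induced replicate 2), and also without the low-signal filter (0.0619), with median centring (0.0782), with quantile normalization (0.0509) and without the intensity trend (0.0542). Leaving out both samples numbered 2, because the wording of their source name differs from the rest, gave 0.115.

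Irf1, the factor that carries much of the response to interferon gamma, gave lower values in induced cells on its brighter probe set and was not called. On M34253_g_at the signals were 247, 364, 353 and 308 in induced samples and 525, 589, 419 and 352 in uninduced samples. Only the uninduced sample at 352 fell within the induced range (log2 difference -0.55 ± 0.19, 95% interval -0.95 to -0.14, limma adjusted p = 0.125). The interval is for this probe set alone, and it excludes 0 while the p adjusted over all probe sets does not pass. On M34253_at the signals lay between 83.2 and 166 in induced and between 67.0 and 190 in uninduced samples, 4 of 8 under background (log2 difference -0.15 ± 0.34, adjusted p = 0.893).

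The promoter windows of both factors, taken from RefSeq (GRCr8), hold letters of the elements that interferon signals act through. Windows from 250 bases before to 50 bases after each start were searched on both strands. The core of the interferon-stimulated response element, bound by IRFs, was taken as the letters GAAA repeated after any 2 bases, and 3.92% of 33469 windows of that length hold it. The gamma-activated site, bound by STAT factors, was taken as TTCNNNGAA, which 8.87% hold. The NF-kB consensus is in 0.111%, and a looser form of it with 2 free bases, which includes the consensus, is in 1.53%. No motif of a different kind overlaps another in the stretches printed here. The stretches below are shown because they place these letters before both factors, with matches in capitals, 5′ to 3′ on the gene's strand.
Irf7 (chr1:205800024-205800123, minus strand, the 100 bases before the start): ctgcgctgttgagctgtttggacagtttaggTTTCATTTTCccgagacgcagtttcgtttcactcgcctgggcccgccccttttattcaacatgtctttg
Irf1 (chr10:38417773-38417821, plus strand, from 162 to 114 bases before the start): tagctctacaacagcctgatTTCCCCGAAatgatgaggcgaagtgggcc
The Irf7 match is the response element core read on the opposite strand, and the Irf1 match is a gamma-activated site. A match is a description of these letters and says nothing of whether the factor was bound in these cells.

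Psmb9, also known as Lmp2, replaces a constitutive catalytic subunit when the immunoproteasome is built, and it fell on both probe sets. On D10757_g_at the signals were 584, 655, 518 and 512 in induced samples and 923, 837, 900.1 and 809 in uninduced samples. The highest induced signal was well under the lowest uninduced signal. The log2 difference was -0.61 ± 0.12 (SE; 95% interval -0.87 to -0.36; limma adjusted p = 0.0071), a change of -34.5% from 867 ± 53.2 to 567 ± 67.2 (SD, n = 4 each). On D10757_at the signals were 790.0, 785, 668 and 760 in induced samples and 1037, 1108, 1337 and 977 in uninduced samples. Here too the groups did not overlap (log2 difference -0.56 ± 0.12, adjusted p = 0.0136), with a change of -32.1%. All 16 values were above background. Both calls held without each of the 8 arrays in turn, at adjusted p of at most 0.0289 and 0.0452. Both ended with median centring of the arrays (adjusted p = 0.126 and 0.183), at differences of -0.58 and -0.53, and that of D10757_at also ended without the intensity trend (0.0546) and without replicate 2 of both groups (0.0906).

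Psmb8, or Lmp7, is the immunoproteasome's other subunit among these genes, and it was lower by less and not called. Its probe set D10729_s_at read 1725, 1823, 1608 and 1710 in induced samples and 2027, 2116, 2159 and 1719 in uninduced samples. The uninduced sample at 1719 fell within the induced range, and the other 3 were above it (log2 difference -0.22 ± 0.10, 95% interval -0.43 to -0.0066, limma adjusted p = 0.258). The gap between both subunits was tested within each array, where the scaling of the array cancels apart from the constant added before the logarithm. The log2 signal of Psmb9 (mean of its probe sets) minus that of Psmb8 was -1.39 ± 0.06 in induced and -1.02 ± 0.08 in uninduced samples (SD, n = 4 each), with no overlap. The difference of -0.37 had a two-sided exact permutation p of 0.0286, the smallest that the 70 splits of 8 arrays into 4 and 4 allow, and 0.05 after Benjamini-Hochberg adjustment over the 7 such comparisons made, which is not under 0.05. These 7 were chosen after the values were seen.

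Psmb5, the constitutive subunit that Psmb8 replaces, differed by -0.08, -0.07 and 0.02 on its 3 probe sets, none called. Psmb9 minus Psmb5 within arrays was lower by 0.54 in induced samples, again without overlap between groups (exact permutation p = 0.0286, adjusted 0.05). Psmb6, the subunit that Psmb9 replaces, was not among the 11 tested core genes, so Psmb9 was not compared with its own counterpart. Psmb8 minus Psmb5 differed by -0.18 and its groups overlapped (exact permutation p = 0.0857, adjusted 0.12). Over the alternatives run, Psmb9 minus Psmb8 ranged from -0.40 to -0.34 and Psmb9 minus Psmb5 from -0.58 to -0.48.

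Of the constitutive core proteasome list, 11 genes were tested and 0 were called in either direction by limma, with a median log2 difference of 0.0077. Its lowest p-values belonged to Psma5 (0.63 ± 0.28 on rc_AA891383_i_at, -0.03 and 0.01 on its other probe sets), Psmb2 (-0.26 ± 0.14 and -0.14), Psma2 (0.15, 0.30 and 0.17) and Psmb3 (0.18 and 0.15). The proteasome activator subunits Psme1 and Psme2, which interferon gamma is also known to raise, differed by -0.22 ± 0.10 on D45249_g_at and -0.21 ± 0.12, neither called (adjusted p = 0.258 and 0.421). The other tested Psme1 probe set differed by -0.13.

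**Figure D2:**
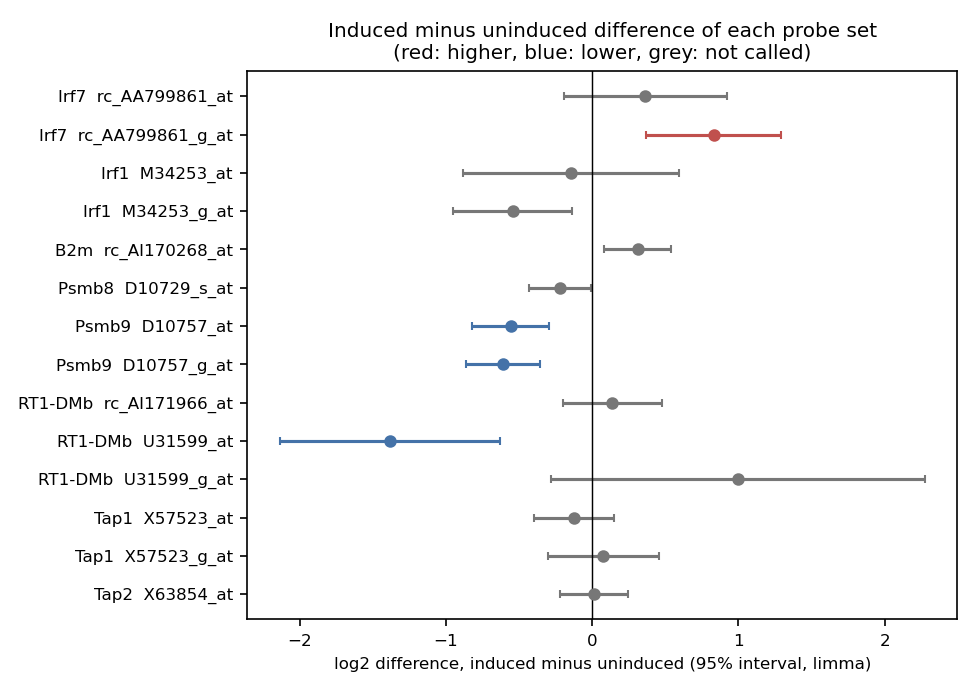
Log2 difference, induced minus uninduced (horizontal axis), of each of the 14 probe sets with its 95% interval from limma, not adjusted for the number of probe sets. Both Psmb9 probe sets lie near -0.6 with narrow intervals, the Tap1 and Tap2 probe sets lie near 0, and the 3 RT1-DMb probe sets point in different directions.

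Tap1 and Tap2 pair to form the peptide transporter, and neither was called. Tap1 read 1587, 1958, 1434 and 1623 in induced samples and 2172, 1760, 1727 and 1560 in uninduced samples on X57523_at. The groups overlapped (log2 difference -0.13 ± 0.13, 95% interval -0.40 to 0.15, limma adjusted p = 0.688). On X57523_g_at it read 777, 762, 604 and 445 against 587, 629, 669 and 522, with the induced samples spread on both sides of the uninduced range (0.07 ± 0.17, interval -0.31 to 0.45, adjusted p = 0.894). Tap2 read 671, 634, 642 and 563 in induced samples and 646, 613, 612 and 609 in uninduced samples on X63854_at. Its groups overlapped (log2 difference 0.01 ± 0.11, interval -0.22 to 0.25, adjusted p = 0.972). The Psmb9 intervals were -0.82 to -0.30 on D10757_at and -0.87 to -0.36 on D10757_g_at. The Tap2 interval lies above both. That of X57523_at overlaps both, and that of X57523_g_at narrowly overlaps that of D10757_at only.

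Psmb9 and Tap1 are neighbours that point away from each other. In the order of the GRCr8 gene list, Tap2, Psmb8, Tap1, Psmb9 and RT1-DMb are 5 consecutive genes of chromosome 20, in the class II part of the rat major histocompatibility complex. The starts of Tap1 and Psmb9 used for the promoter windows are 457 bases apart on opposite strands. Psmb9 minus Tap1 within arrays was -0.64 ± 0.14 in induced and -0.08 ± 0.11 in uninduced samples (SD, n = 4 each). The groups did not overlap, and the difference of -0.56 had an exact permutation p of 0.0286 (adjusted 0.05), from -0.62 to -0.52 over the alternatives run. Psmb9 was picked for this test because it had been called.

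The stretches shown for these neighbours let the windows be set side by side.
Psmb9 (chr20:4668900-4668999, plus strand, the 100 bases before the start): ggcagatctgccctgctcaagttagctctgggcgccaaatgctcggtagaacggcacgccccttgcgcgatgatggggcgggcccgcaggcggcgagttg
Tap1 (chr20:4668569-4668684, minus strand, from 141 to 26 bases before the start): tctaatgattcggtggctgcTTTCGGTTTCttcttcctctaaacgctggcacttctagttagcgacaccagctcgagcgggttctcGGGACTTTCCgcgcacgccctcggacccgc
Psmb8 (chr20:4657026-4657071, minus strand, from 40 bases before the start to base 6 after it): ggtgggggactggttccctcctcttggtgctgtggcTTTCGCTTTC
Tap2 (chr20:4652308-4652357, minus strand, from 61 to 12 bases before the start): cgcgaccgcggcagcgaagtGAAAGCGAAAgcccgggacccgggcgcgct
The response element core is in the Tap1, Psmb8 and Tap2 windows, with the same 10 letters in Tap2 and, on the opposite strand, in Psmb8, and the NF-kB consensus is in the Tap1 window. Psmb8 also holds TTCCCAGAA, a match to the gamma-activated site, from 245 to 237 bases before its start. None of the searched letters is in the Psmb9 window, which says only that they are not within these 300 bases. The Tap1 matches, 121 to 112 and 55 to 46 bases before its start, lie between the starts of Tap1 and Psmb9. They are therefore also before the Psmb9 start, outside the window searched for it, and cannot be assigned to Tap1 alone. In all, 5 of the 7 members with a window hold the response element core, 2 the gamma-activated site and 2 the NF-kB site. The genes were chosen as interferon response and antigen presentation genes, and many interferon targets are known to carry such elements, so their presence is no separate finding.

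B2m encodes beta-2-microglobulin, the light chain of class I molecules. On rc_AI170268_at it read 4453, 3953, 4661 and 4203 in induced samples and 3136, 3545, 3150 and 4145 in uninduced samples. Of the uninduced samples, 3 were under every induced sample, and uninduced replicate 4, at 4145, was within the induced range. The log2 difference was 0.31 ± 0.10 (95% interval 0.08 to 0.54) and was not called (limma adjusted p = 0.117), from 3494 ± 473 to 4317 ± 307 (SD, n = 4 each). Without uninduced replicate 4 it was 0.40 and passed (adjusted p = 0.0262). It did not pass without any other array, at adjusted p up to 0.288.
B2m is shown from 170 to 108 bases before its start (chr3:129549160-129549222, plus strand), where the response element core and, on the opposite strand, the NF-kB letters lie 3 bases apart: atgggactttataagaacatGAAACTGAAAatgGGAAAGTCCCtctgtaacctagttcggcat

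RT1-DMb is the beta chain of DM, which removes the placeholder peptide from class II molecules, and its 3 probe sets disagreed. On U31599_at it read 32.3, 35.6, 18.8 and 31.0 in induced samples and 89.0, 70.9, 73.8 and 120 in uninduced samples. The groups did not overlap, but all 8 values were under background (log2 difference -1.39 ± 0.34, limma adjusted p = 0.0297). On U31599_g_at, from the same source sequence, it read 76.4, 188, 17.5 and 34.2 against 20.4, 29.3, 26.9 and 23.8. There the induced samples were spread around a tight uninduced group, with only the sample at 188 above background (1.00 ± 0.59, adjusted p = 0.423). This probe set passed the low-signal filter only through the induced samples (mean 79.1, against 25.1 in uninduced samples), and U31599_at only through the uninduced samples. On rc_AI171966_at, the brightest, it read 465, 337, 355 and 407 in induced samples and 286, 379, 372 and 379 in uninduced samples. All 8 values of that probe set were above background and the groups overlapped (0.14 ± 0.16, 95% interval -0.20 to 0.48, adjusted p = 0.739). U31599_at minus rc_AI171966_at within arrays differed by -1.52 between groups, a comparison chosen after the call was seen (exact permutation p = 0.0286, adjusted 0.05). With U31599_at under background on every array, nothing is drawn from it about a difference between the probe sets. The call on U31599_at held without induced replicate 2 (adjusted p = 0.0499) and without induced replicate 4 (0.0401). It ended without each of the other 6 arrays, at up to 0.0891 without uninduced replicate 4, while the difference stayed between -1.47 and -1.23 over all 8 such fits. Without replicate 2 of both groups it also ended (0.105), at a difference of -1.56.

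**Figure D3:**
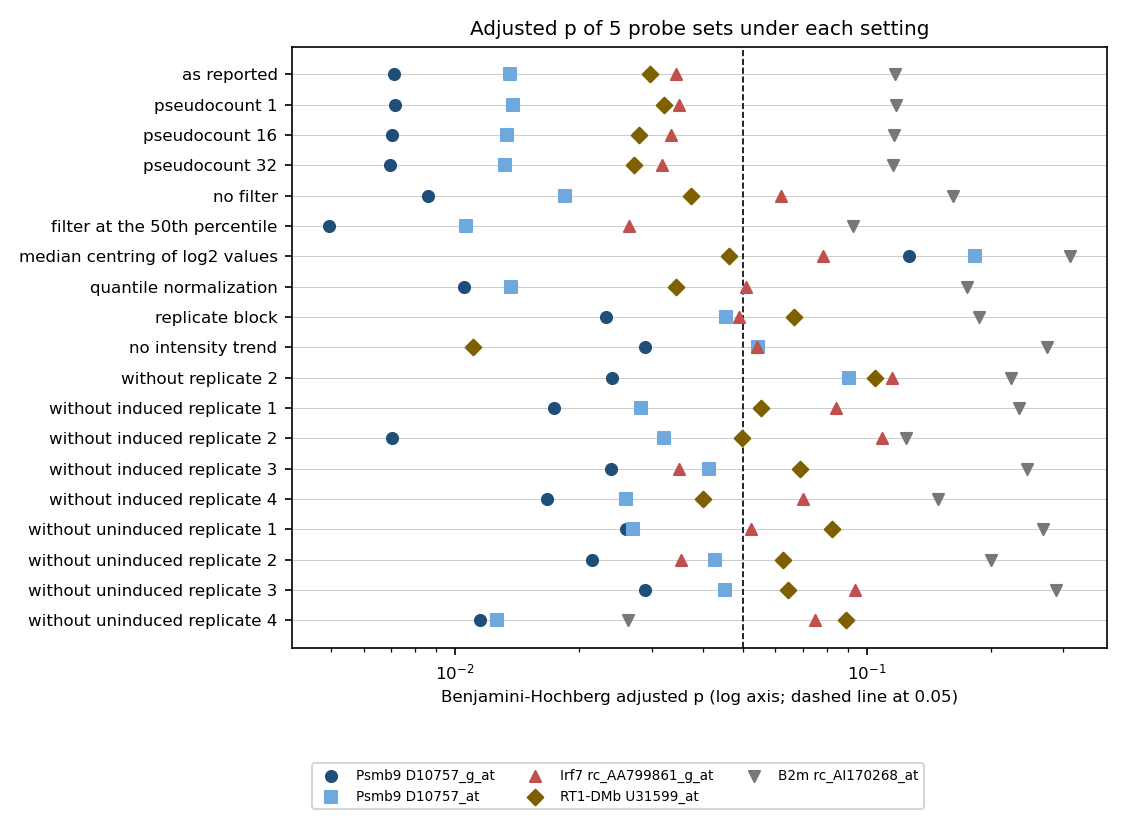
Benjamini-Hochberg adjusted p (horizontal log axis, dashed line at 0.05) of the 4 called probe sets and of B2m under the reported setting and each alternative. Psmb9 on D10757_g_at passes in 17 of 18 alternatives and on D10757_at in 15, Irf7 in 7 of 18, RT1-DMb in 9 of 17, and B2m only without uninduced replicate 4.

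Calls in the wider interferon and presentation lists are to be read against 7.96% of all 3620 tested genes with a call on any probe set. Of 20 tested genes for interferon receptors and signalling, 3 rose, 0 fell and 17 were not called, with a median log2 difference of -0.01. Nfkbia, the inhibitor that holds NF-kB in the cytoplasm, rose by 0.94 ± 0.13 on X63594cds_g_at, from signals between 507 and 659 to between 904 and 1207. Its second probe set differed by 0.37 (limma adjusted p = 0.191). Cish, a cytokine-inducible inhibitor of STAT signalling, rose by 0.62 ± 0.15 (adjusted p = 0.0245), and Ptpn1, a phosphatase that acts on JAK kinases, rose by 0.47 ± 0.12 on 1 of 5 probe sets (0.0316). The Nfkbia call held in all 8 fits without an array, that of Cish in 2 and that of Ptpn1 in 3 (highest adjusted p 0.0784 for Cish without uninduced replicate 3, and 0.0946 for Ptpn1 without uninduced replicate 1). The Cish call also ended with median centring (0.0534), with the replicate block (0.0695) and without replicate 2 of both groups (0.140). That of Ptpn1 ended with median centring (0.209), without the intensity trend (0.114) and without replicate 2 of both groups (0.0883). Over all alternatives the differences stayed between 0.55 and 0.71 for Cish and between 0.39 and 0.54 for Ptpn1. Jak2 was next by p, at -0.57 on a probe set under background and at 0.85 and -0.04 on its others. The interferon genes themselves read low: Ifng read at most 106 and Ifnb1 at most 59.4, under background on every array.

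Of 15 tested interferon-stimulated genes 1 rose, 1 fell and 13 were not called, with a median log2 difference of 0.01. The member that rose was Gch1, the first enzyme of tetrahydrobiopterin synthesis, by 1.44 ± 0.15 on E03424cds_s_at and 0.96 ± 0.16 on M58364_at. Its probe set rc_AI043643_at differed by 0.59 ± 0.20 and was not called (limma adjusted p = 0.116). The member that fell was Lgals3bp, a secreted binder of galectins, by 0.43 ± 0.10 on AF065438_at (limma adjusted p = 0.0277), while its other probe set differed by -0.14. The Gch1 calls held in all 8 fits without an array and the Lgals3bp call in 1, without induced replicate 4 (highest adjusted p 0.0744, without uninduced replicate 1). The Lgals3bp call also ended with median centring (0.191), with the replicate block (0.0825), without the intensity trend (0.0528) and without replicate 2 of both groups (0.160), at differences between -0.45 and -0.39. The antiviral genes most used as readouts were not called. Mx1 lay between 22.7 and 81.9, under background on every array (0.21 ± 0.43), and Oas1a, above background on every array at 302 to 526, differed by -0.16 ± 0.19 (adjusted p = 0.754). Lgals9 and Ccl2 followed by p at -0.87 ± 0.43 and 0.80 ± 0.46, both under background.

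Of 22 tested genes of the class I route besides the members, 1 rose, 0 fell and 21 were not called, with a median log2 difference of -0.07. Calr, a chaperone of the endoplasmic reticulum that also serves in peptide loading, rose by 0.77 ± 0.08, 0.52 ± 0.09 and 0.62 ± 0.12 on its 3 probe sets. These calls held in all 8 fits without an array, and that of X53363cds_s_at ended with median centring, without the intensity trend and without replicate 2 of both groups. Pdia3, the disulfide isomerase of the loading complex, differed by 0.41 ± 0.12 (limma adjusted p = 0.0688), Rfx5, a factor at class I and class II promoters, by -0.46 ± 0.18, and the peptidase Tpp2 by 0.52 ± 0.23 on its probe set of lowest p. The class I heavy chain probe sets above background on every array were M11071_f_at (RT1-CE16), at 14737 to 19041, and M24026_f_at (RT1-CE12), at 6682 to 8144. They differed by 0.10 ± 0.09 and 0.11 ± 0.09, and since class I genes are close copies these probe sets may bind several of them.

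Of 16 tested genes of the class II route besides RT1-DMb, 1 rose, 0 fell and 15 were not called, with a median log2 difference of 0.12. Ctsl, a lysosomal protease that can cut the invariant chain, rose by 1.11 ± 0.10 on rc_AI176595_s_at, from signals between 1391 and 1768 to between 3211 and 3623, a call that held in all 8 fits without an array. Its other probe set differed by 0.45 ± 0.13 (limma adjusted p = 0.0643). The lysosomal proteases Ctsb and Ctsd differed by 0.37 and 0.15 and the costimulatory ligand Cd80, under background, by -0.80, none called. RT1-DMa, the partner chain of RT1-DMb, lay between 1714 and 2302 on U31598_s_at and differed by 0.10 ± 0.11. Cd74, the invariant chain that class II molecules need, lay between 3.10 and 26.5 on its 4 probe sets, under background on every array. The part of RNA from leukocytes in the class II values was not tested.

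**Figure D4:**
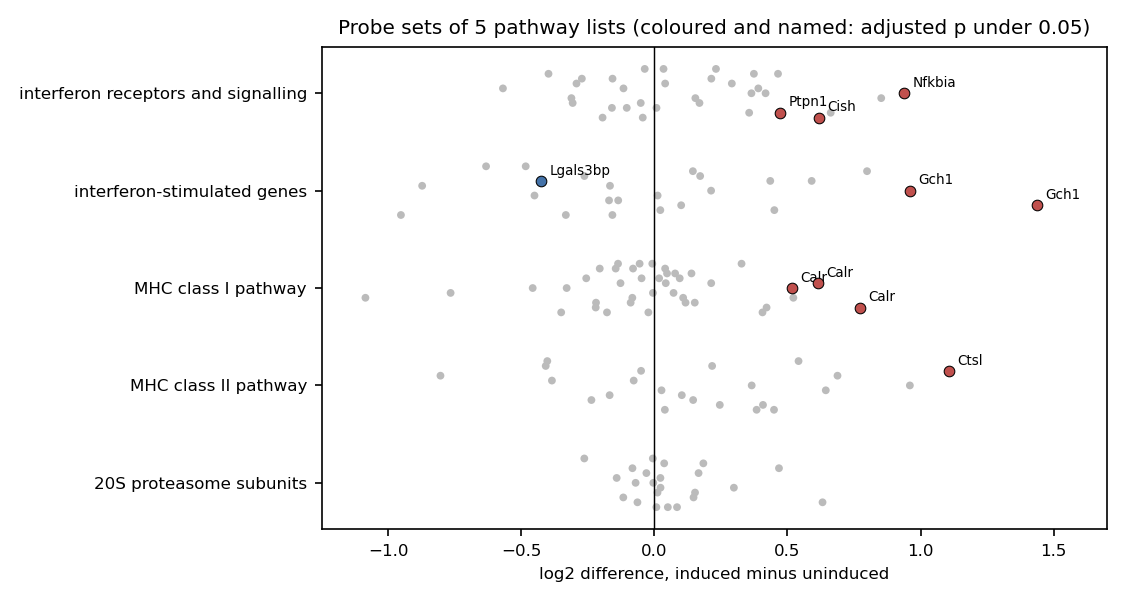
Log2 difference, induced minus uninduced (horizontal axis), of every tested probe set of 5 pathway lists, 1 list per row, with called probe sets coloured and named (red higher, blue lower) and the vertical scatter within a row for legibility only. Calls are Nfkbia, Cish, Ptpn1, Gch1, Calr and Ctsl to the right and Lgals3bp to the left, and no core proteasome subunit is called.

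The genes whose log2 signals over the 8 arrays were most like those of the called probe sets and of B2m were named by Pearson correlation, a description in which all arrays share the group difference and the scaling. For Psmb9 on D10757_g_at they were Atp5f1e, a subunit of ATP synthase (r = 0.989, n = 8 arrays), the uracil-DNA glycosylase Ung (0.985) and the mitotic cyclin Ccnb1 (0.983). On D10757_at they were the latrophilin Adgrl2 (0.968), the maintenance DNA methyltransferase Dnmt1 (0.967) and the lipase Lpl (0.967). All 6 of these were themselves called lower in induced cells, by 0.32 (Atp5f1e) to 0.92 (Ung) on the log2 scale. They were picked for likeness to probe sets called lower, so their calls are no separate finding. For Irf7 they were the fusion protein adaptor Napa (0.953), the citrate lyase Acly (0.952) and Pnpla7 (0.951), of which only Acly was called (0.79). For RT1-DMb on U31599_at they were Lgals3bp (0.971), Gabra3 (0.960) and C2cd4b (0.952). U31599_at was under background on all 8 arrays and passed the low-signal filter only through the uninduced samples, so nothing is drawn from these matches. For B2m they were the small GTPase Arf4 (0.993), Tpp2 (0.982) and the clathrin heavy chain Cltc (0.971), none of them called.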

How the data were processed

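The authors deposited linear intensities, 1 per probe set and array. With 2% cut from both tails, array means ran from 500.78 to 500.85, which is how scaling by the authors was recognised; the program is not given in the sources used here. No detection calls or scanner files were used here, and the number of arrays limits the precision. Symbols came from the array's annotation table. The constant 7 (10th percentile of the values, rounded) was added before taking log2. The 59 controls and the 2622 other probe sets with a mean under 36.33 (30th percentile) were left out, which left 6118 for limma 3.58.1 (lmFit, eBayes with intensity trend; 6 residual degrees of freedom; R 4.3.3). Errors of log2 differences are standard errors, and folds include the added 7. Single differences within arrays used exact permutation over the 70 splits. The 8 genes and the lists were chosen with earlier results of these data known; of each list, called genes and the 4 with the lowest p were named, and other genes after their values were seen. Leukocyte, chromaffin, fibroblast and adrenal cortex markers were checked: 6 of 23 tested chromaffin genes rose and 3 fell, 2 of 9 fibroblast genes rose, and 0 of 1 cortex genes were called. Tried alternatives were the constant, the filter, the scaling, the trend, a replicate block and leaving out arrays. A planned comparison of protein sequences was not run, and the within-array differences were added after the values were seen.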

Additional observations from a re-analysis of the deposited data

Results flagged for a closer look

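In 2 of 28 groups of 4 arrays a single sample stood far from the other 3, by a gap above Dixon's 95% critical value for 4 samples; chance gives about 1 in 20. For RT1-DMb on rc_AI171966_at, uninduced replicate 1 read 286.4, with the nearest of the others at 372.2. For Tap2 on X63854_at, uninduced replicate 1 read 645.8, with the nearest at 612.9. Neither probe set was called, also without that array.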

How the results depend on the processing

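The counts of called probe sets among the 8 genes were 4 as reported (1 higher, 3 lower). Median centring and leaving out replicate 2 of both groups each gave 1 (0 higher, 1 lower; RT1-DMb on U31599_at and Psmb9 on D10757_g_at, respectively), and the fit without intensity trend gave 2 (0 higher). No filter and quantile normalization each left 0 higher. Leaving out each array in turn gave 2 to 3 calls, 0 to 1 higher and 2 to 3 lower. Over all probe sets, 433 calls (251 higher, 182 lower) became 230 (167 and 63) with median centring, 279 (101 lower) without the trend and 221 (141 and 80) without replicate 2, and 313 to 411 (191 to 247 higher, 112 to 164 lower) without 1 array. Higher calls made up 58.0% as reported and 72.6% with median centring. Every median difference over all probe sets was within 0.09 of 0.

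Same-numbered arrays showed no clear pairing: their deviations correlated at -0.14, 0.06, -0.09 and 0.19, against -0.21 to 0.20 for arrays of different number. These few values do not settle whether the replicate numbers pair the samples. With the replicate block, 369 probe sets were called, 3 of them members, and the RT1-DMb call ended (adjusted p = 0.0664). Signs reversed only in members near 0: Irf1 on M34253_at (0.014 without induced replicate 1, 0.019 without uninduced replicate 1, 0.016 without uninduced replicate 2, lowest -0.45 without uninduced replicate 4), Tap1 on X57523_g_at (-0.024 without induced replicate 1, -0.014 without induced replicate 2, highest 0.24) and Tap2 (-0.018 without induced replicate 1, highest 0.064). The direction of all 4 called probe sets was the same in every alternative in which they were tested. RT1-DMb on U31599_at and U31599_g_at and Irf7 on rc_AA799861_at were not tested at the 50th percentile filter. Signals near background limit Irf7, Irf1 on M34253_at and RT1-DMb; their sizes move with the constant added, for RT1-DMb from -1.56 (1 added) to -0.96 (32 added).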
